A study of Mus musculus with 6 samples.

Results

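The claudins are the membrane proteins that build the tight junction, the seal between neighbouring epithelial or endothelial cells. The transcripts of 10 claudin genes, Cldn1, Cldn2, Cldn3, Cldn4, Cldn5, Cldn7, Cldn8, Cldn10, Cldn16 and Cldn19, were followed from the glomerular parietal epithelium to the collecting duct in kidneys of sham and DOCA-salt mice. Each symbol matched 1 row of the gene table, so the members are 10 of 33696 gene rows and 10 of the 32 rows with a claudin symbol. Their unique molecular identifiers (UMIs, tags that mark single captured transcripts) were summed over the cells of each cell class in each mouse and divided by all UMIs of that class, which gives CPM, the UMIs of a gene scaled to a class total of 1000000 UMIs. The data were single-cell RNA libraries of 3 sham and 3 DOCA-salt kidneys, 1 library per sample, and each sample was taken as 1 mouse. All mice were male C57BL/6, aged 8 to 10 weeks when purchased and older when the kidneys were taken. DOCA-salt mice had the left kidney removed and, after 1 week, received a 50 mg pellet of the mineralocorticoid deoxycorticosterone acetate (DOCA) and drank 1% NaCl for 21 days. Sham mice had a sham operation and normal water, so the loss of a kidney, the steroid and the salt cannot be told apart here, and females were not studied. Kidneys were digested with collagenase and counted with a chemistry that reads the 3′ end of transcripts.

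Claudins differ in what they let through. Claudin-2 and 1 form of claudin-10 make pores between proximal tubule cells, for cations with water and for anions, while another form of claudin-10 makes a sodium pore in the thick ascending limb. Claudin-16 and claudin-19 act together in the thick ascending limb, where calcium and magnesium are taken back between the cells, and their loss causes wasting of both ions in people. Claudins 3, 4, 7 and 8 line the aldosterone-sensitive distal nephron and collecting duct, where they act as sodium barriers or take part in chloride passage. Claudin-1 is a barrier claudin of the parietal cells of Bowman's capsule, and claudin-5 is the main claudin of blood vessel endothelium.

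The 6 libraries held 93172739 to 137819127 UMIs. Of 76774 barcodes, 60561 passed limits on genes, UMIs, haemoglobin and mitochondrial share (at most 50%), and 55630 were kept once likely doublets were removed. Any pair of libraries had 18 to 41 barcodes in common. Clustering without the claudin genes gave 40 clusters, of which all but 6 (11397 cells) were named from marker genes into 22 classes. Of these, 17 classes had at least 20 cells in every mouse and were compared, and the names mean cells with the markers of that type. An unnamed cluster of 617 cells came to 99.0% from the mouse DOCA-salt 2 and entered no class. Class sizes per mouse were 82 to 187 cells for the parietal class, 1775 to 2251 for proximal tubule S1, 1489 to 2549 for S2, 109 to 249 for the thin limb, 509 to 881 for the thick ascending limb and 122 to 272 for the distal convoluted tubule. They were 109 to 252 cells for the connecting tubule, 107 to 216 for principal cells, 82 to 163 for type A and 115 to 228 for pendrin-positive intercalated cells.

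The sham levels of the 10 claudins in the 17 compared classes are shown in the heat map. The pore-forming claudins of the proximal tubule were also found outside it. Cldn2 was at 164 ± 16.7 CPM (mean ± SD, n = 3) in the parietal class, 142 ± 20.7 CPM in proximal tubule S1 and 139 ± 18.4 CPM in S2, and these 3 classes overlapped. Among the nephron classes the thin limb followed at 60.8 ± 6.11 CPM, below all of them and above every later nephron class, where Cldn2 lay between 7.10 and 10.9 CPM. The cycling class had 116 CPM. Macrophages, neutrophils, smooth muscle and pericytes, capillary endothelium and T or NK cells had 13.8 to 15.7 CPM, so values in that range cannot be told from free RNA. Cldn10 was highest in the thick ascending limb at 719.9 ± 173 CPM and next in proximal tubule S2 at 367 ± 106 CPM, and the ranges did not overlap. The gene Cldn10 lies at chr14:119025320-119112901 on the plus strand of GRCm39 and has first exons at chr14:119025320-119025782 and chr14:119092144-119092621 that share the last exon at chr14:119111604-119112901. Reads of the 3′ end therefore cannot separate its proximal and thick-limb forms.

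The divalent-cation claudins were centred on the thick ascending limb. Cldn16, at chr16:26281885-26301515 on the plus strand, was at 99.7, 97.0 and 101 CPM in the thick ascending limb of the 3 sham mice and at no more than 2.54 CPM on average in the other 16 compared classes. The macula densa and urothelium classes, too small to compare, had 27.8 and 24.7 CPM on average from 18 and 11 sham UMIs. Cldn1 is its neighbour 91288 bases away on the minus strand (chr16:26175392-26190596). Cldn19 (chr4:119112591-119119635, plus strand) was at 234 ± 43.1 CPM in the thick ascending limb and at 122 ± 27.3 CPM in the thin limb, without overlap. Among the claudins of the distal nephron, Cldn3 was highest in principal cells at 175 ± 15.1 CPM, just above the thin limb at 122 ± 39.7 CPM with no overlap. For Cldn4 the order of these classes was not settled, with 316, 795 and 378 CPM in principal cells and 319.7, 699 and 316 CPM in the thin limb. In both classes the mouse Sham 2 was far above the other 2 sham mice. Cldn7 (chr11:69852648-69858711, plus strand) was at 433 ± 45.3 CPM in the thin limb and 373 ± 61.9 CPM in principal cells, again with overlap. Cldn8 (chr16:88357716-88360071, minus strand) was spread over several classes, at 342, 293, 286 and 276 CPM in type A intercalated, thin limb, principal and pendrin-positive cells, and neighbours in this order overlapped. In the distal convoluted tubule Cldn3 was at 13.3 ± 2.32 CPM and Cldn4 at 14.9 ± 7.54 CPM, each below every connecting tubule and collecting duct class without overlap.

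The remaining members marked cells outside the tubule proper. Cldn1 was at 197 ± 26.8 CPM in the parietal class and next at 71.2 ± 26.3 CPM in the neutrophil class, without overlap, while the proximal tubule classes had 10.5 and 4.54 CPM. In the neutrophil class it lay in 6, 17 and 12 cells of the sham mice, and 5 cells held 94.4%, 56.6% and 68.0% of its UMIs. At resolution 2 the cluster of this name scored 5.68 for neutrophil and 4.99 for dendritic cell markers, so which of its cells had Cldn1 is not settled. Cldn5 (chr16:18595597-18597012, plus strand) was at 1089 ± 136 CPM in arterial endothelium. At resolution 2 the cluster of this name (506 cells) was led by Slc14a1 and Lef1 and had 1 arterial marker among its 10 leading genes. Another cluster (566 cells) scored best for arterial markers but was left unnamed, so which vessels the class holds is not settled. Neighbours in pattern were sought as the 3 genes with the highest Pearson correlation of mean log2(CPM + 1) over the 17 classes, among 11521 genes, and are a description only, since the classes share libraries and free RNA. Cldn16 ran most like Slc12a1, the sodium-potassium-chloride cotransporter of the thick ascending limb (r = 0.947). Cldn3 ran with Dsp (0.981) and Epcam (0.963), both of cell-cell adhesion, and Cldn4 with Rab15 (0.971) and Krt18 (0.931). Closest to Cldn2 were Sod3 and Cbs (both 0.975), to Cldn10 Car4 (0.961), to Cldn1 Dyrk3 (0.849), to Cldn5 Sema3g (0.956), to Cldn7 Tmem30b (0.979), to Cldn8 AI661453 (0.978) and to Cldn19 Sim2 (0.939).

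**Figure D1:**
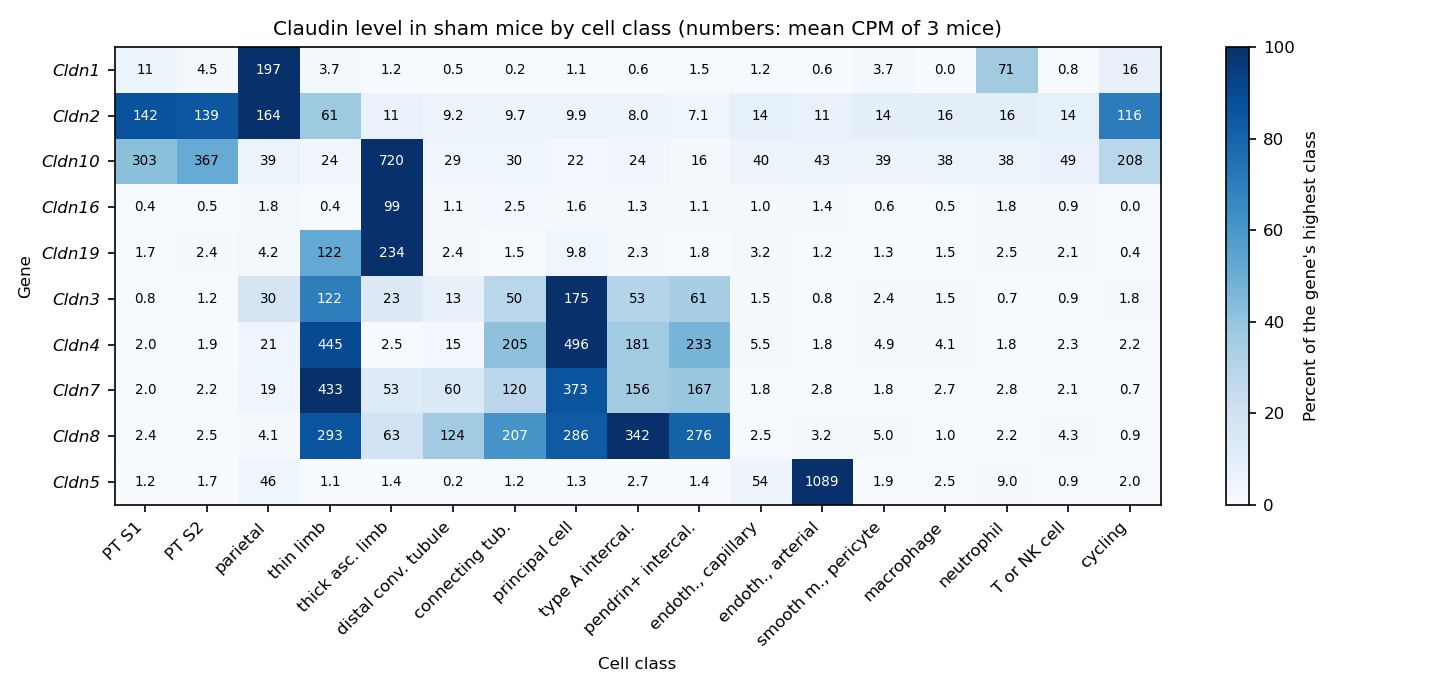
Mean level of each claudin in sham kidneys (rows) by cell class (columns). Each cell prints the mean CPM over 3 mice and its colour is the percent of that gene's highest class. Cldn16 is at 99.3 CPM in the thick ascending limb and at most 2.54 CPM in the other classes drawn, while Cldn8 is spread over the thin limb, distal convoluted tubule, connecting tubule and collecting duct classes.

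DOCA-salt and sham kidneys were then compared class by class with edgeR over all genes, with an adjusted p under 0.05 as the threshold, and changes are given as log2 of DOCA-salt over sham ± standard error. In the 10 nephron classes 76 pairs of member and class had enough UMIs to test, and 24 did not. Of the 76 pairs, 19 rose and 2 fell in DOCA-salt mice, against 4.6% higher and 3.6% lower among all gene and class pairs tested in these classes. All 3 DOCA-salt mice lay above all 3 sham mice in 24 pairs and below them in 7, and the groups overlapped in 45, while among all gene and class pairs tested 15.6% lay above and 10.7% below in this way. Median changes over the members tested were highest in the distal convoluted tubule (0.75) and connecting tubule (0.87), while the medians over all genes tested lay between -0.02 and 0.01. The other medians were 0.56 in the parietal class, 0.38 in pendrin-positive cells, 0.31 in the thin limb, 0.22 and 0.06 in proximal tubule S1 and S2, 0.05 in the thick ascending limb, 0.04 in principal cells and -0.06 in type A cells. Cldn3 was called higher in 6 of the classes and Cldn8 in none. For all 10 members the change differed between classes in a joint test of class and treatment (edgeR, adjusted p from 1.05e-09 for Cldn4 to 0.0242 for Cldn16), but 51.7% of all genes tested also passed it.

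**Figure D2:**
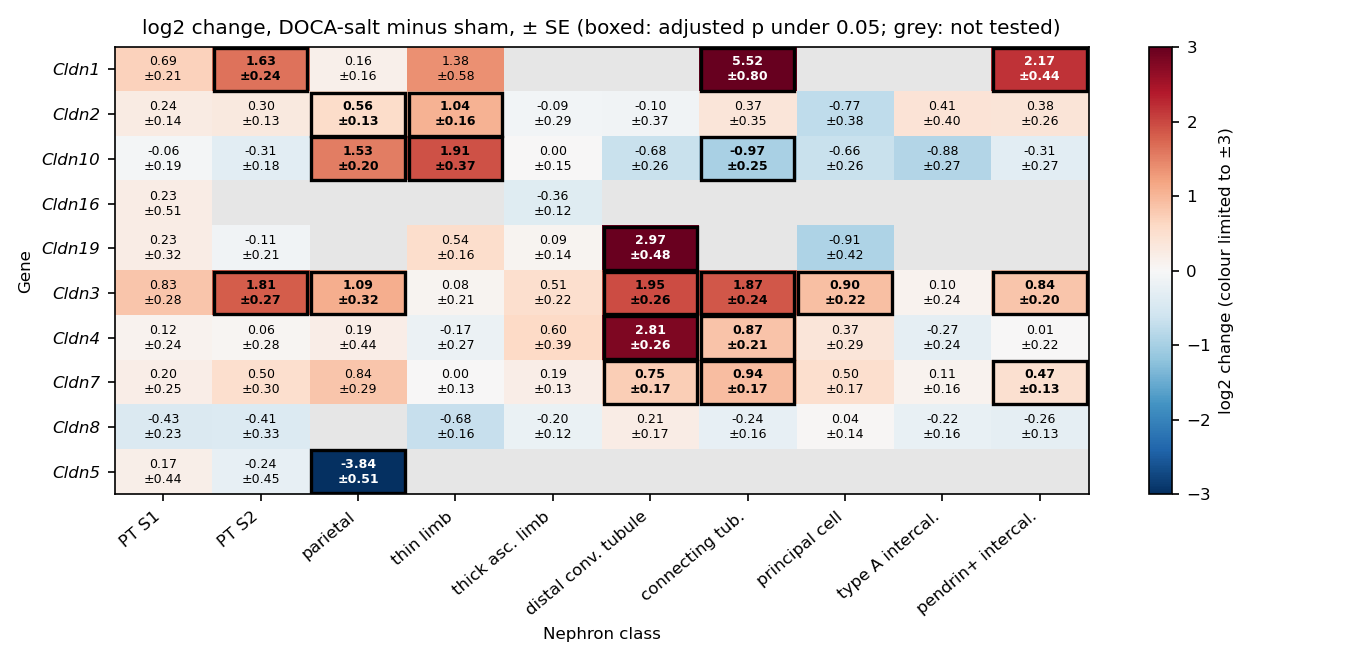
Change of each claudin in DOCA-salt against sham kidneys (log2 ± standard error) in the 10 nephron classes, with boxes for pairs past an adjusted p of 0.05 and grey for pairs not tested. Cldn4 is boxed in the distal convoluted and connecting tubule, Cldn7 there and in pendrin-positive cells, and Cldn3 in 6 classes, and no pair is boxed in the thick ascending limb, proximal tubule S1 or type A intercalated cells.

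The distal convoluted tubule is the thiazide-sensitive segment that takes up sodium chloride through Slc12a3. Here 4 of the 7 members tested rose and none fell, where 7.44% of all genes tested were called and 4.63% were called higher. Cldn4, a claudin of the aldosterone-sensitive segments, was at 11.8, 23.5 and 9.39 CPM in the sham mice and 104, 88.3 and 137 CPM in the DOCA-salt mice. Every DOCA-salt mouse was well above every sham mouse (log2 change 2.81 ± 0.26, edgeR adjusted p = 1.91e-06). Cldn3, a barrier claudin, was at 15.5, 13.6 and 10.8 CPM in the sham mice and 75.0, 44.9 and 49.2 CPM in the DOCA-salt mice. These groups did not overlap either (log2 change 1.95 ± 0.26, edgeR adjusted p = 9.20e-05). Cldn7 was at 58.2, 71.7 and 51.3 CPM in the sham mice and 116, 102 and 117 CPM in the DOCA-salt mice, a smaller rise of an already present transcript (log2 change 0.75 ± 0.17, edgeR adjusted p = 0.00838). It lost the threshold when Sham 3 was left out (adjusted p = 0.074). Cldn19, a claudin of the thick ascending limb, was at 4.54, 1.24 and 1.44 CPM in the sham mice and 23.0, 13.8 and 30.1 CPM in the DOCA-salt mice. Its sums were 8 UMIs in sham and 166 in DOCA-salt mice, a ratio of 8.69 with an exact 95% interval of 4.31 to 20.5 that covers counting error only (log2 change 2.97 ± 0.48, edgeR adjusted p = 0.00054). Its partner Cldn16 was at 1.82, 0 and 1.44 CPM in the sham mice and 3.72, 1.89 and 3.01 CPM in the DOCA-salt mice and too low to test. Cldn8 was at 108, 156 and 107 CPM in the sham mice and 168, 146 and 158 CPM in the DOCA-salt mice, and the groups overlapped (log2 change 0.21 ± 0.17, edgeR adjusted p = 0.527). Cldn10 was at 40.0, 17.3 and 31.1 CPM in the sham mice and 17.5, 23.9 and 21.6 CPM in the DOCA-salt mice, with overlap (log2 change -0.68 ± 0.26, edgeR adjusted p = 0.133). It passed as lower without Sham 2 (-0.90, adjusted p = 0.00965), at a mitochondrial limit of 20% (-1.79) and without doublet removal (-0.70), at levels near those of macrophages.

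The rises in the distal convoluted tubule were also seen as more cells with a UMI. DOCA-salt cells of this class were deeper (median 10289.5 against 5925.5 UMIs per cell), so each cell was thinned to 1000 UMIs. The share of cells with a Cldn4 UMI was then 1.55 ± 1.15% in sham and 6.08 ± 3.17% in DOCA-salt mice, where unthinned shares were 6.65% and 30.9%. Macrophages, which should lack Cldn4, had thinned shares of 0.77% and 0.54%. Shares with Cldn3 were 1.95% and 4.87% and those with Cldn7 were 4.78% and 9.50%, each with an exact two-sided permutation p of 0.1, the smallest that 3 against 3 mice can give. Before thinning, 9, 12 and 10 cells had a Cldn4 UMI in the sham mice and 76, 80 and 68 in the DOCA-salt mice, and the 5 cells with most Cldn4 held 27.1% to 37.1% of its UMIs in the DOCA-salt mice. Cldn19 lay in fewer cells, 4, 1 and 2 in the sham mice and 34, 24 and 33 in the DOCA-salt mice. The 5 cells with most Cldn19 held 46.8%, 43.2% and 38.3% of its UMIs in the DOCA-salt mice, and its thinned shares were 0.26% in sham and 1.62% in DOCA-salt mice.

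Other lists moved in the same cells. The summed level of markers of injured tubule cells went from 82.9 to 113 CPM in sham to 314 to 416 CPM in DOCA-salt mice, and 2 of its 3 tested genes rose, Lcn2 (0.847 to 57.2 CPM) and Dcdc2a (21.3 to 218 CPM). Cycling-cell markers went from 7.42 to 10.0 CPM to 91.4 to 277 CPM with 4 of 4 tested higher, among them Mki67 and Top2a. The class's own list was at 11970 to 13555 CPM in sham and 8036 to 9283 CPM in DOCA-salt mice, and Slc12a3, Pvalb and Wnk1 fell. Their part in the claudin result was not tested. Principal cell markers, whose cells are rich in Cldn3 and Cldn4, were at 27.2 to 72.7 CPM in sham and 43.2 to 60.6 CPM in DOCA-salt mice with none called, and thick ascending limb markers at 3231 to 4426 and 3447 to 5404 CPM with none called. Sham connecting tubule cells also had Cldn3 (50.3 CPM) and Cldn4 (205 CPM). At resolution 2 their markers Calb1 and Slc8a1 were among the 10 leading genes of the distal convoluted cluster. The distal convoluted tubule went from 1.91% to 2.59% of cells and the connecting tubule from 2.21% to 1.32%. Without the cells that held an Aqp2 UMI, a choice made after seeing the data, the changes were 2.78 for Cldn4, 1.77 for Cldn3, 0.78 for Cldn7 and 3.47 for Cldn19, all past the threshold. Cldn10 was called lower in that fit (-0.92, edgeR adjusted p = 0.047), where 6.25% of all genes tested were called. The part of neighbouring cell types in the claudin result was not tested.

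**Figure D3:**
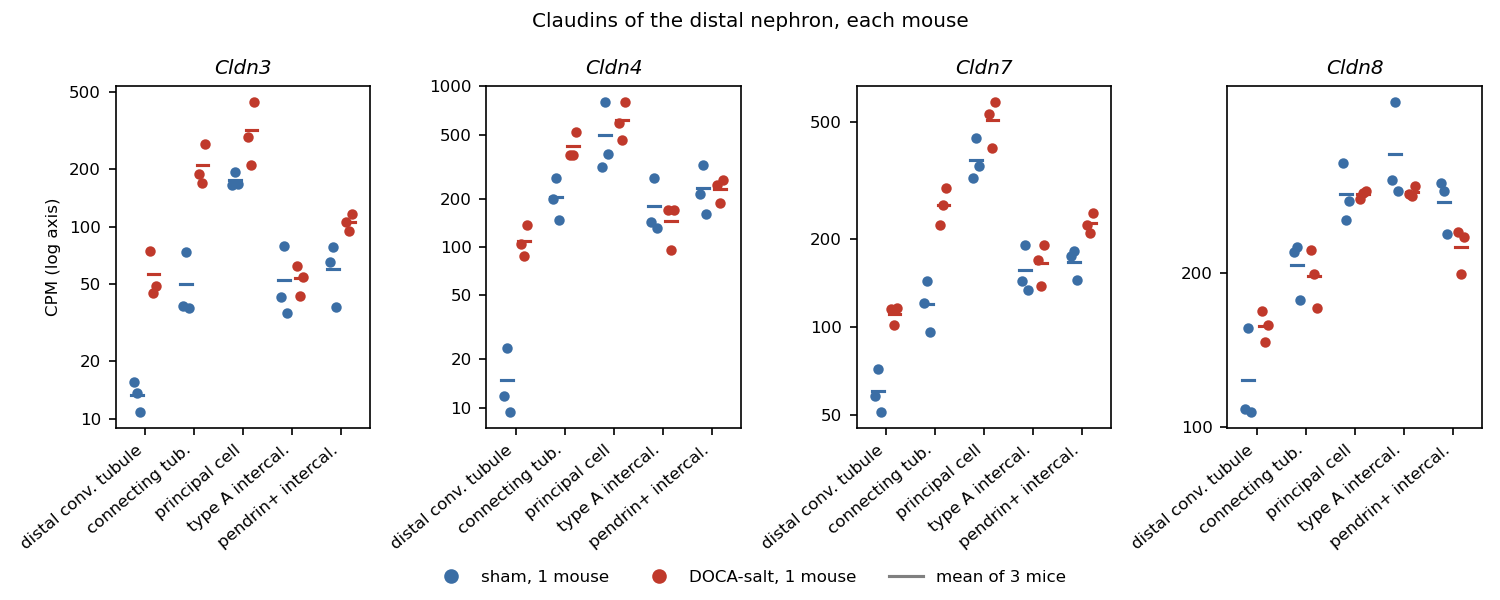
Levels of Cldn3, Cldn4, Cldn7 and Cldn8 in 5 distal classes, 1 point per mouse with the group mean as a line, on a logarithmic axis of CPM. Cldn3 and Cldn4 of the distal convoluted tubule separate by group, while Cldn8 overlaps in that class.

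The connecting tubule, which follows the distal convoluted tubule and responds to aldosterone, gave 4 rises and 1 fall among 7 members tested, but 24.2% of all genes tested in this class were called (12.2% higher and 12.1% lower). Cldn3 was at 38.8, 74.2 and 37.9 CPM in the sham mice and 188, 169 and 269 CPM in the DOCA-salt mice, with no overlap (log2 change 1.87 ± 0.24, edgeR adjusted p = 4.87e-05). Cldn4 was at 198, 269.9 and 147 CPM in the sham mice and 372, 374 and 520.4 CPM in the DOCA-salt mice, also without overlap (log2 change 0.87 ± 0.21, edgeR adjusted p = 0.00647). Cldn7, a claudin found on the basolateral membrane as well as in the junction, was at 121, 144 and 96.3 CPM in the sham mice and 223, 261 and 297 CPM in the DOCA-salt mice, again without overlap (log2 change 0.94 ± 0.17, edgeR adjusted p = 0.00109). These 3 rises passed the threshold whichever mouse was left out. Cldn1 was at 0.705, 0 and 0 CPM in the sham mice and 8.60, 15.4 and 24.1 CPM in the DOCA-salt mice, from a single sham UMI to 62 DOCA-salt UMIs (ratio 68.6, exact 95% interval 11.9 to 2752, edgeR adjusted p = 0.000149). Cldn8, in contrast, was at 220.1, 225 and 177 CPM in the sham mice and 222, 199 and 171 CPM in the DOCA-salt mice and the groups overlapped (log2 change -0.24 ± 0.16, edgeR adjusted p = 0.296).

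The fall in the connecting tubule was that of Cldn10, with 32.4, 26.3 and 31.5 CPM in the sham mice and 15.3, 14.8 and 24.1 CPM in the DOCA-salt mice and no overlap (log2 change -0.97 ± 0.25, edgeR adjusted p = 0.0109). These levels lay at those of macrophages, which had 38.4 CPM in sham and 27.2 CPM in DOCA-salt mice and are not known to make claudin-10. The fall was lost without DOCA-salt 2 (adjusted p = 0.0544). After thinning to 1000 UMIs the share of connecting tubule cells with Cldn3 was 4.5% in sham and 14.0% in DOCA-salt mice, that with Cldn4 was 13.6% and 25%, and that with Cldn7 was 12% and 20.2%. For Cldn1 the shares were 0% in the sham mice and 0%, 0.98% and 2.56% in the DOCA-salt mice (exact permutation p = 0.4), and 5 cells held 48% to 71.4% of its DOCA-salt UMIs. Markers of injured tubule cells were at 121 to 225 CPM in sham and 775 to 1065 CPM in DOCA-salt mice (Vcam1, Lcn2 and Dcdc2a rose, 3 of 4 tested), parietal markers at 1.31 to 11.3 and 147 to 273 CPM, and cycling markers at 6.57 to 17.5 and 111 to 124 CPM. The class's own markers were at 42288 to 54301 CPM in sham and 24162 to 30179 CPM in DOCA-salt mice, and principal cell markers at 2779 to 3095 and 754 to 1067 CPM, with 5 of them lower and Aqp4 higher. The part of these shifts in the claudin result was not tested. The connecting tubule was also a smaller class in DOCA-salt mice (1.32% of cells) than in sham mice (2.21%).

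In principal cells, the sodium- and water-absorbing cells of the collecting duct, 1 of 7 tested members rose (7.8% of all genes called, 4.3% higher). Cldn3 was at 166, 192 and 167 CPM in the sham mice and 295, 209 and 448 CPM in the DOCA-salt mice, and the groups did not overlap (log2 change 0.90 ± 0.22, edgeR adjusted p = 0.026). It lost the threshold without Sham 1, Sham 3, DOCA-salt 1 or DOCA-salt 3, with adjusted p up to 0.117. Cldn4 was at 316, 795 and 378 CPM in the sham mice and 595, 463 and 804 CPM in the DOCA-salt mice and overlapped, Sham 2 being near DOCA-salt 3 (log2 change 0.37 ± 0.29, edgeR adjusted p = 0.507). Cldn7 had a change of 0.50 ± 0.17 (edgeR adjusted p = 0.0972) and Cldn8 one of 0.04 ± 0.14 (edgeR adjusted p = 0.897). Without Sham 2 both Cldn4 and Cldn7 passed the threshold, with adjusted p of 0.0141 and 0.0277. Injured-cell markers were at 364 to 604 CPM in sham and 1116 to 1667 CPM in DOCA-salt principal cells, and thin limb markers at 26.5 to 142 and 92.5 to 866 CPM with Slc14a2 called higher, and their part was not tested.

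Intercalated cells secrete acid or base. In the pendrin-positive cells, the bicarbonate-secreting kind, Cldn3 was at 65.3, 78.1 and 38.3 CPM in the sham mice and 106, 94.5 and 116 CPM in the DOCA-salt mice (log2 change 0.84 ± 0.20, edgeR adjusted p = 0.0278), where 7.31% of all genes tested were called and 4.15% were higher. Cldn7 was at 174, 181 and 145 CPM in the sham mice and 224, 209.9 and 246 CPM in the DOCA-salt mice, just past the threshold (log2 change 0.47 ± 0.13, edgeR adjusted p = 0.0478). Cldn1 was at 1.18, 1.41 and 1.79 CPM in the sham mice and 3.80, 8.66 and 7.72 CPM in the DOCA-salt mice, from 15 and 53 UMIs (log2 change 2.17 ± 0.44, edgeR adjusted p = 0.0124). None of the 3 overlapped between groups, and none was firm: Cldn3, Cldn7 and Cldn1 lost the threshold in 4, 5 and 3 of the 6 fits that left out a mouse, the highest adjusted p being 0.136, 0.211 and 0.0633. Cldn3 also lost it at resolution 2 (edgeR adjusted p = 0.596) and without doublet removal (edgeR adjusted p = 0.259), and Cldn7 in 5 of 10 other settings. At resolution 2 a cluster of 316 cells scored best for pendrin-positive markers but was left unnamed. The connecting tubule markers S100g, Trpv5 and Slc8a1 were among its 10 leading genes, and the part of such cells was not tested. After thinning to 1000 UMIs the share of these cells with Cldn3 was 6.64% in sham and 6.62% in DOCA-salt mice (exact permutation p = 1), and that with Cldn7 was 15.8% and 19.6% (exact permutation p = 0.2). The 5 cells with most Cldn3 held 19.6%, 19.0% and 17.2% of its UMIs in the sham mice and 18.5%, 41.2% and 31.7% in the DOCA-salt mice, where 1 cell had 53 UMIs. No thinned cell had a Cldn1 UMI in any of the 6 mice, and its UMIs lay in 5, 4 and 6 cells of the sham mice and 13, 12 and 8 cells of the DOCA-salt mice. The 5 cells with most Cldn1 held 38.5%, 68.2% and 83.3% of its UMIs in the DOCA-salt mice and 83.3% or more in each sham mouse. DOCA-salt macrophages had 2.05, 0.605 and 3.91 CPM of Cldn1 and DOCA-salt fibroblasts 12.3, 13.7 and 11 CPM. In type A cells none of the 6 members tested passed, with changes of 0.10 ± 0.24 for Cldn3, -0.27 ± 0.24 for Cldn4, 0.11 ± 0.16 for Cldn7 and -0.22 ± 0.16 for Cldn8 (1.68% of all genes called). No member's change differed between the types of intercalated cell in edgeR's interaction test, the closest being Cldn3 with a difference of -0.72 (type A minus pendrin-positive, adjusted p = 0.252), and 1.06% of all genes passed that test.

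The differences between classes were tested directly for the distal members. The change of Cldn4 in the distal convoluted tubule exceeded that in the connecting tubule by 1.95 log2 units, that in principal cells by 2.38 and that in type A cells by 3.07, all past the threshold in edgeR's interaction test, where 9.37%, 6.68% and 5.55% of all genes passed. For Cldn3 the connecting tubule exceeded principal cells by 0.98 and type A cells by 1.74, also past the threshold (12.9% and 14.3% of all genes). Between the collecting duct classes, Cldn4 had a change 0.68 higher in principal than in type A cells (5.11% of all genes passed), and no member differed between principal and pendrin-positive cells (6.93%). Over 14 pairs of classes, 29 of 140 member contrasts were called, and 1.06% to 19.9% of all genes were called in these pairs.

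Cldn3 and Cldn4, which rose in both the distal convoluted and the connecting tubule, are neighbours on chromosome 5 with 39279 bases and no coding gene between them. Each has a single exon, Cldn4 on the minus strand at chr5:134973973-134975788 and Cldn3 on the plus strand at chr5:135015068-135016326, so they point away from each other. The 250 bases before the start of the main transcript are printed here for Cldn3, Cldn4 and Cldn7, which rose together in the distal convoluted and connecting tubule, and for Cldn8, which was not called in either, from GRCm39 with the GENCODE annotation, 5′ to 3′ on each gene's strand. Capitals mark CACCTG on either strand, the E-box that Snail repressors of epithelial genes bind.
Cldn3 (chr5:135014818-135015067, plus strand): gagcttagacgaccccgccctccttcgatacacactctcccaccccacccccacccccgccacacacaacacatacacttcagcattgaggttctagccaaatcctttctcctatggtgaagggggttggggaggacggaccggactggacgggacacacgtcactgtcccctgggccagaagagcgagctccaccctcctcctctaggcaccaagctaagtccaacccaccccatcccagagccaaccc
Cldn4 (chr5:134975789-134976038, minus strand): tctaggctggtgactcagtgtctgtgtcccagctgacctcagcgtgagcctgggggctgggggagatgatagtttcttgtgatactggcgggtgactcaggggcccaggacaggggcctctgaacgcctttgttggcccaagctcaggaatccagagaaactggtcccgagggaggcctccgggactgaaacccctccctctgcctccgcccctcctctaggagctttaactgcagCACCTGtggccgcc
Cldn7 (chr11:69855972-69856221, plus strand): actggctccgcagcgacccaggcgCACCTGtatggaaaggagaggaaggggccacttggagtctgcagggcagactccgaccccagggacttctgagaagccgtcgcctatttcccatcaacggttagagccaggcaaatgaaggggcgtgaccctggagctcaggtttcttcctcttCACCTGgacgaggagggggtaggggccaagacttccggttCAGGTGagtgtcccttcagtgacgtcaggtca
Cldn8 (chr16:88360072-88360321, minus strand): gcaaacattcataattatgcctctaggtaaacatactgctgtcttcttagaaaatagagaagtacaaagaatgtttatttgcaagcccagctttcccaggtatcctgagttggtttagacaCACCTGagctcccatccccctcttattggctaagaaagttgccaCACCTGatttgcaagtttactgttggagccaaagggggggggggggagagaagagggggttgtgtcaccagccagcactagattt
The E-box was found 1 time before Cldn4, 3 times before Cldn7, 2 times before Cldn8 and not before Cldn3, and 17.7% of 21593 coding-gene promoters of the same length held it. The grainyhead letters AACCGGTT, searched on both strands, were in none of the members and in 0.107% of all promoters. The arm of the steroid receptor element, AGAACA on either strand, is in 14.3% of promoters and in none of these 4. The whole element, with both arms 3 bases apart, was in 0 of the 21593. The motifs were picked after the letters had been read, and a match or its absence in this window says nothing of the factor.

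The thin limb, the thin-walled part of the loop of Henle, gave 2 rises among its 8 tested members, where 0.679% of all genes tested were called and 0.499% were higher. Cldn2, the cation and water pore, was at 67.9, 57.1 and 57.6 CPM in the sham mice and 104, 151 and 113 CPM in the DOCA-salt mice. The lowest DOCA-salt mouse was above the highest sham mouse (log2 change 1.04 ± 0.16, edgeR adjusted p = 0.0181). After thinning to 1000 UMIs, 7.28% of sham and 12.3% of DOCA-salt cells had a Cldn2 UMI (exact permutation p = 0.1). The call was lost in 4 of the 6 fits that left out a mouse, with adjusted p up to 0.0701. Cldn10 was at 23.3, 22.1 and 25.4 CPM in the sham mice and 40.0, 77.7 and 152 CPM in the DOCA-salt mice, also without overlap (log2 change 1.91 ± 0.37, edgeR adjusted p = 0.0481). The call was lost without Sham 1, Sham 3, DOCA-salt 2 or DOCA-salt 3, with adjusted p up to 0.175. This rise was carried by few cells: the 5 cells with most Cldn10 held 29.3%, 31.3% and 29.3% of its UMIs in the sham mice and 57.5%, 82.4% and 81.2% in the DOCA-salt mice, and 1 cell of DOCA-salt 2 had 209 UMIs. Cells with any Cldn10 UMI numbered 62, 47 and 55 in sham and 45, 44 and 28 in DOCA-salt mice, and the thinned shares were 3.48% and 3.81% (exact permutation p = 1).

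Cldn8 in the thin limb was at 293, 359.8 and 226 CPM in the sham mice and 196, 165 and 177 CPM in the DOCA-salt mice, all DOCA-salt mice below all sham mice, but it missed the threshold (log2 change -0.68 ± 0.16, edgeR adjusted p = 0.0853). Cldn19 was at 145, 129.6 and 92.1 CPM in the sham mice and 157, 166 and 204 CPM in the DOCA-salt mice, with no overlap but Sham 1 close to DOCA-salt 1 (log2 change 0.54 ± 0.16, edgeR adjusted p = 0.209). Cldn3, Cldn4 and Cldn7, which rose in the distal convoluted tubule, had changes of 0.08 ± 0.21, -0.17 ± 0.27 and 0.00 ± 0.13 here (edgeR adjusted p = 0.998 for Cldn7). The class joined 2 clusters, which were taken apart after seeing the data. In the larger, with 806 cells led by Fst, Bst1 and Aqp1, Cldn2 was at 98.8, 77.5 and 81.1 CPM in sham and 143, 193 and 162 CPM in DOCA-salt mice, a log2 change of 0.96 (edgeR adjusted p = 0.014). Cldn10 (2.22, edgeR adjusted p = 0.0214) and Cldn19 (0.87, edgeR adjusted p = 0.0198) passed there too, where 0.899% of all genes tested were called. In the smaller, with 343 cells led by Slc14a2 and Corin, Cldn2 was at 18.8, 22.9 and 20.8 CPM in sham and 9.7, 14.3 and 12.6 CPM in DOCA-salt mice. Its log2 change of -0.75 went in the other direction but was not called (edgeR adjusted p = 0.614, 0.0546% of all genes called). These Cldn2 levels lay near those of sham macrophages (15.7 CPM) and T or NK cells (13.8 CPM). The smaller cluster had 42, 36 and 30 cells in the DOCA-salt mice, and Cldn10 (0.63) and Cldn19 (0.13) were not called there. The change of Cldn2 in the whole thin limb class exceeded that in the thick ascending limb by 1.14, that in proximal tubule S1 by 0.78 and that in principal cells by 1.81, past the threshold in edgeR's interaction test where 1.6%, 7.62% and 5.94% of all genes passed. Markers of proximal tubule S1, a class rich in Cldn2, were at 146 to 157 CPM in sham and 112 to 170 CPM in DOCA-salt thin limb cells with none called. The thin limb class went from 2.61% of cells to 1.57%.

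The 250 bases before Cldn2 (chrX:138701480-138712135, plus strand) are shown because they held the most AGAACA arms of the 10 members, with capitals marking that motif on either strand.
Cldn2 (chrX:138701230-138701479, plus strand): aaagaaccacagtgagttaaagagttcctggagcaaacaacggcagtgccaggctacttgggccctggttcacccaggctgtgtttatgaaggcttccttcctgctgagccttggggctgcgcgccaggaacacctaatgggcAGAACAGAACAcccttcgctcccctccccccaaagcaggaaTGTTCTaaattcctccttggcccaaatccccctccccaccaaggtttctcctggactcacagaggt
There were 3 matches, starting 107, 102 and 66 bases before the transcript, the first and second sharing a base. Cldn10 and Cldn16 had 1 each, and the other 7 members none.

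The thick ascending limb, which takes back sodium chloride by Slc12a1 and divalent cations between its cells, showed no called change in any of its 8 tested members (edgeR, 1.18% of all genes called). Cldn3 was at 18.9, 33.5 and 15.5 CPM in the sham mice and 36.2, 27.0 and 31.9 CPM in the DOCA-salt mice, with overlap (log2 change 0.51 ± 0.22, edgeR adjusted p = 0.373), and it passed without Sham 2 (0.82, adjusted p = 0.00485) and without a filter on low counts (0.53, adjusted p = 0.0463). Cldn16, the divalent cation claudin, was at 99.7, 97.0 and 101 CPM in the sham mice and 89.6, 72.6 and 74.1 CPM in the DOCA-salt mice. The highest DOCA-salt mouse was below the lowest sham mouse, but the change of -0.36 ± 0.12 missed the threshold (edgeR adjusted p = 0.212). Thinned to 1000 UMIs, 9.64% of sham and 6.66% of DOCA-salt cells had a Cldn16 UMI (exact permutation p = 0.1). Its partner Cldn19 was at 229, 279 and 194 CPM in the sham mice and 285, 223 and 251 CPM in the DOCA-salt mice, with overlap (log2 change 0.09 ± 0.14, edgeR adjusted p = 0.865). Cldn10, with its forms not separated, was at 639, 918 and 602 CPM in the sham mice and 742, 752 and 699 CPM in the DOCA-salt mice and was centred on no change (log2 change 0.00 ± 0.15, edgeR adjusted p = 0.996). None of 12 other thick ascending limb genes tested there, chosen as a list of transport and regulatory genes, was called.

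Whether 2 claudins share single cells was examined for 9 pairs, in cells thinned to 1000 UMIs. For Cldn10 and Cldn16 in the thick ascending limb the log2 odds ratio of finding both was -1.67 (SD 0.43 over 6 mice), negative in 6 of 6 mice (exact sign-flip permutation p = 0.03125, the smallest 6 mice can give, and 0.09375 adjusted over 9 pairs). At 2000 UMIs it was -1.72. Cldn16 and Cldn19, the cooperating pair, gave 0.04 and were positive in 4 of 6 mice. Cldn10 and Cldn19 gave 0.19 (SD 0.13), positive in 6 of 6 mice at 1000 UMIs and in 4 of 6 at 2000. Outside this segment, Cldn3 and Cldn4 in principal cells gave 0.58 (SD 0.58), positive in 6 of 6 mice. Both of these pairs had an adjusted p of 0.09375 (exact sign-flip permutation), and none of the 9 pairs passed 0.05.

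**Figure D4:**
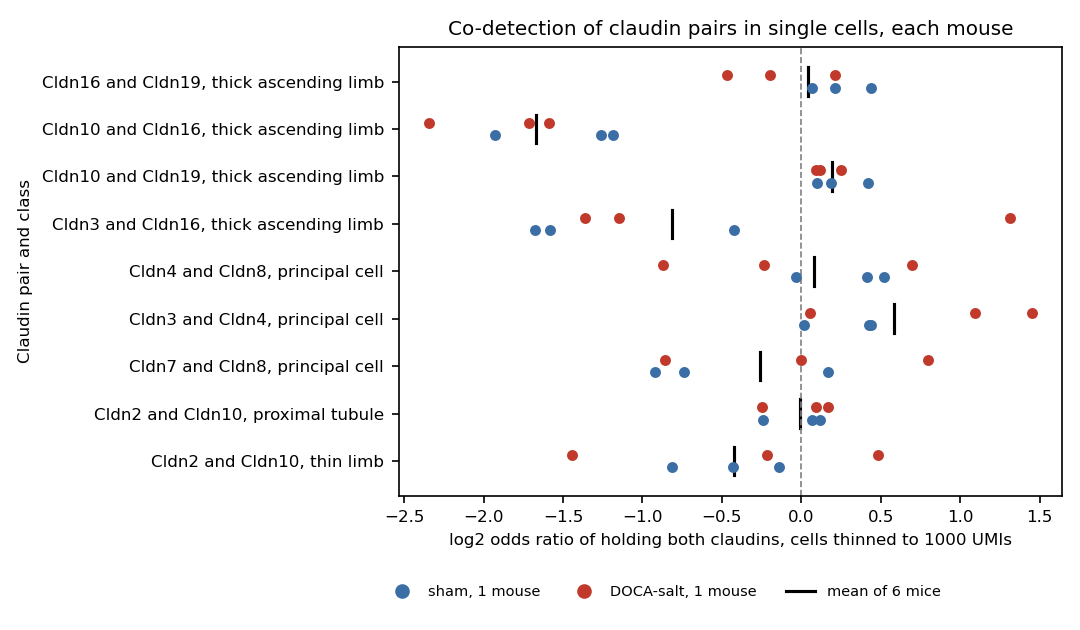
Log2 odds ratio of finding both claudins of a pair in the same cell after thinning to 1000 UMIs, 1 point per mouse, for 9 pairs. Cldn10 with Cldn16 in the thick ascending limb lies below 0 in all 6 mice, and Cldn16 with Cldn19 lies around 0.

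The parietal epithelium, the flat layer of Bowman's capsule, had 3 rises and 1 fall among 7 tested members, where 16.6% of all genes tested were called (7.99% higher and 8.65% lower). Cldn1, its barrier claudin, was at 208, 217 and 167 CPM in the sham mice and 203, 189 and 260.3 CPM in the DOCA-salt mice, with overlap (log2 change 0.16 ± 0.16, edgeR adjusted p = 0.572). Cldn10 was at 27.8, 36.0 and 53.4 CPM in the sham mice and 113, 108 and 120.5 CPM in the DOCA-salt mice. Every DOCA-salt mouse was at least at 108 CPM and no sham mouse was above 53.4 CPM (log2 change 1.53 ± 0.20, edgeR adjusted p = 0.000373), and the call held whichever mouse was left out. Cldn2 was at 165, 147 and 179.9 CPM in the sham mice and 247, 234 and 239.5 CPM in the DOCA-salt mice (log2 change 0.56 ± 0.13, edgeR adjusted p = 0.0126), without overlap, and lost the threshold without DOCA-salt 3 (adjusted p = 0.055). Cldn3 was at 14.4, 54.9 and 21.4 CPM in the sham mice and 64.4, 59.0 and 72.4 CPM in the DOCA-salt mice (log2 change 1.09 ± 0.32, edgeR adjusted p = 0.0339), without overlap, and lost it in 4 of the 6 fits that left out a mouse. Cldn7 overlapped and was not called (log2 change 0.84 ± 0.29, edgeR adjusted p = 0.0734) but passed without Sham 2 (1.44, edgeR adjusted p = 0.0033). Cldn5 fell, from 15.5, 48.3 and 74.8 CPM in sham to 1.25, 4.35 and 3.81 CPM in DOCA-salt mice, with no overlap (log2 change -3.84 ± 0.51, edgeR adjusted p = 0.000447). It rested on few cells, since 5, 8 and 18 sham cells and 4, 9 and 6 DOCA-salt cells had any Cldn5 UMI, and the 5 cells with most held 83.1% and 61.5% of them in Sham 2 and Sham 3.

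Markers of other cells moved with these changes, and DOCA-salt parietal cells were deeper (median 17160.5 against 8588.5 UMIs per cell). Podocyte markers summed to 201 to 513 CPM in sham and 42.5 to 71.5 CPM in DOCA-salt parietal cells, with 5 of 5 tested lower, and the class's own markers were at 1804 to 2492 and 1164 to 1210 CPM with 5 of 5 tested lower. Proximal tubule S1 markers were at 150 to 346 CPM in sham and 561 to 652 CPM in DOCA-salt mice, with 4 of 5 tested higher. Injured-cell markers were at 982 to 1038 and 1651 to 1958 CPM, with Havcr1 going from 1.1 to 145 CPM. The part of these markers in the claudin result was not tested.

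**Figure D5:**
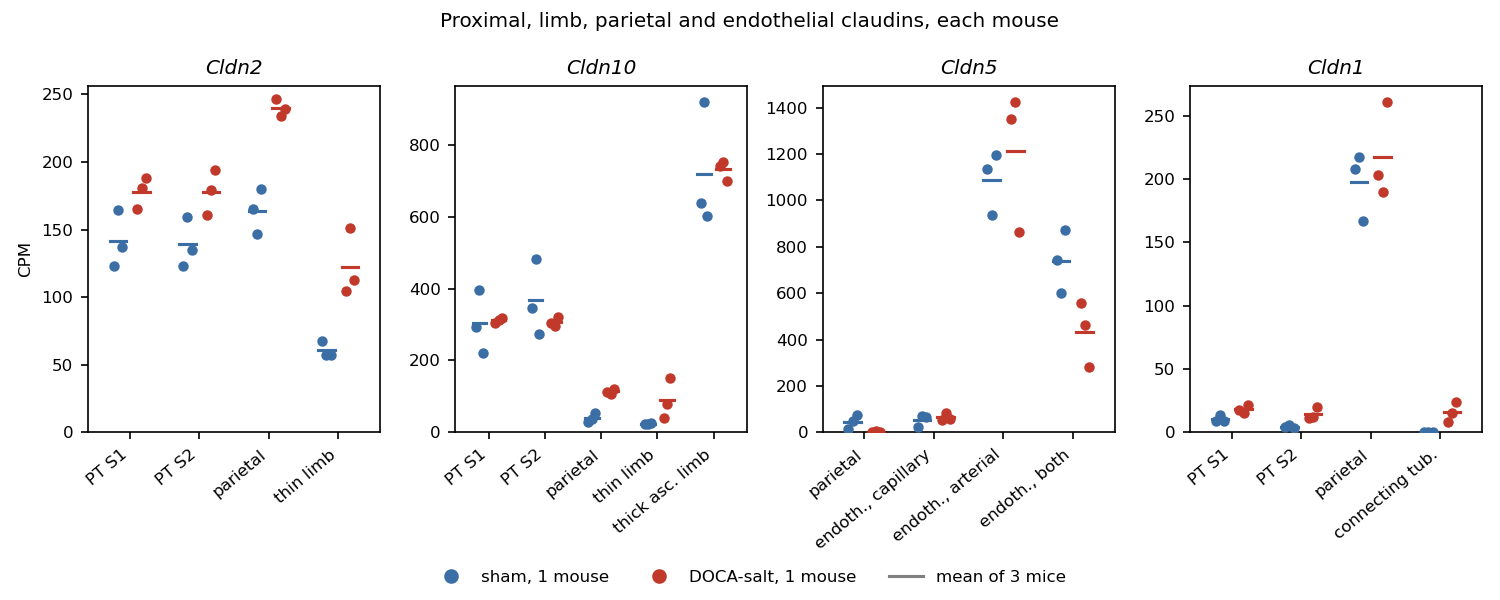
Levels in CPM per mouse, with the group mean as a line, for Cldn2, Cldn10, Cldn5 and Cldn1 in the classes where each is described. Cldn10 of the parietal class separates by group, and Cldn10 of the thick ascending limb overlaps.

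In the proximal tubule, which takes back most of the filtrate, the pore claudins Cldn2 and Cldn10 were not called. Cldn2 in S1 was at 123, 164 and 137 CPM in the sham mice and 165, 181 and 188 CPM in the DOCA-salt mice, without overlap but short of the threshold (log2 change 0.24 ± 0.14, edgeR adjusted p = 0.383). In S2 its change was 0.30 ± 0.13 (edgeR adjusted p = 0.167), again without overlap. Cldn10 had log2 changes of -0.06 ± 0.19 in S1 and -0.31 ± 0.18 in S2, and neither passed (edgeR adjusted p = 0.909 and adjusted p = 0.279). Barrier claudins with few UMIs rose in S2, where 11.4% of all genes were called and 7.47% were higher. Cldn1 was at 4.06, 5.83 and 3.72 CPM in the sham mice and 11.6, 12.5 and 19.9 CPM in the DOCA-salt mice, from 333 and 860 UMIs (log2 change 1.63 ± 0.24, edgeR adjusted p = 0.00364). Cldn3 was at 1.55, 1.06 and 0.904 CPM in the sham mice and 4.54, 3.30 and 5.39 CPM in the DOCA-salt mice, from 92 and 269 UMIs (log2 change 1.81 ± 0.27, edgeR adjusted p = 0.00382). Macrophages, which are not known to make claudin-3, had 1.5 CPM in sham and 2.44 CPM in DOCA-salt mice, and thinned shares of 0.45% and 0.41% against 0.0985% and 0.356% in S2. In the DOCA-salt mice the 5 S2 cells with most Cldn3 held 18.9%, 44.6% and 23.2% of its UMIs. Single S2 cells had up to 10, 17 and 8 Cldn3 UMIs in these mice and up to 3, 3 and 1 in the sham mice, while no macrophage had more than 1. The part of free RNA and of these few cells in the rise was not tested. Neither Cldn1 nor Cldn3 overlapped between groups in S2, and both passed whichever mouse was left out. In S1, where 5.02% of all genes were called, none of 10 members was, and Cldn1 was at 8.97, 14.0 and 8.70 CPM in the sham mice and 17.6, 15.4 and 21.8 CPM in the DOCA-salt mice, the closest (log2 change 0.69 ± 0.21, edgeR adjusted p = 0.103). It passed without Sham 2 (0.97, adjusted p = 0.00327), at a mitochondrial limit of 20% (1.00), without a filter on low counts (0.69) and with DESeq2 (adjusted p = 0.0395), and Cldn2 in S1 passed without Sham 2 (adjusted p = 0.0454). Injured-cell markers in S2 were at 48 to 60.5 CPM in sham and 111 to 177 CPM in DOCA-salt mice, with 5 of 5 tested higher, and their part was not tested.

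Claudin-5 of the endothelium was not called in either of its classes. In arterial endothelium Cldn5 was at 1138, 936 and 1194 CPM in the sham mice and 1353, 1422 and 864 CPM in the DOCA-salt mice, with overlap (log2 change 0.12 ± 0.19, edgeR adjusted p = 0.877, 0.746% of all genes called). In capillary endothelium it was at 24.6, 71.1 and 66.8 CPM in the sham mice and 55.5, 85.6 and 58.2 CPM in the DOCA-salt mice (log2 change 0.33 ± 0.30, edgeR adjusted p = 0.576, 8.16% called). Pooled over both it was at 744, 603 and 874 CPM in the sham mice and 559, 463 and 279.8 CPM in the DOCA-salt mice, all DOCA-salt mice below all sham mice (log2 change -0.76 ± 0.23, edgeR adjusted p = 0.0668, 9.55% called). It passed without Sham 2 (-0.89, adjusted p = 0.0159) and without DOCA-salt 1 (adjusted p = 0.0425). The arterial class went from 2.47% to 1.56% of cells and the capillary class from 2.98% to 5.16%, and the part of these shares in the pooled value was not tested. Cldn10 fell in the capillary class, with 36.9, 45.3 and 36.5 CPM in the sham mice and 24.5, 21.8 and 24.9 CPM in the DOCA-salt mice (log2 change -0.74 ± 0.17, edgeR adjusted p = 0.021, 4.36% of genes lower). Like levels were found in T or NK cells (48.9 CPM in sham and 31.0 CPM in DOCA-salt mice) and neutrophils (38.0 and 20.7 CPM), and the call was lost whichever mouse was left out.

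Summed over all cells kept from a kidney, 17.3% of all genes were called (11.5% higher and 5.72% lower), and a change there cannot separate fewer cells of a type from less RNA per cell. Cldn8 fell, with 54.1, 54.5 and 52.8 CPM in the sham mice and 41.9, 39.3 and 41.4 CPM in the DOCA-salt mice and no overlap (log2 change -0.51 ± 0.08, edgeR adjusted p = 0.00523), although it was called in none of the nephron classes. Among classes with Cldn8, principal cells went from 2.25% to 1.25% of cells, pendrin-positive cells from 2.24% to 1.48%, the thin limb from 2.61% to 1.57%, the connecting tubule from 2.21% to 1.32% and the thick ascending limb from 7.85% to 6.82%, while type A cells went from 1.24% to 1.45% and the distal convoluted tubule from 1.91% to 2.59%. Cldn1 rose, with 6.95, 12 and 7.70 CPM in the sham mice and 18.4, 19.0 and 27.4 CPM in the DOCA-salt mice and no overlap (log2 change 1.16 ± 0.23, edgeR adjusted p = 0.0108), while it was not called in the parietal class, which went from 1.14% to 1.77% of cells, and was called in proximal tubule S2, the connecting tubule and pendrin-positive cells as given above. Cldn3 was not called in whole kidneys (log2 change 0.54 ± 0.17, edgeR adjusted p = 0.0677) but passed without Sham 2 (adjusted p = 0.0156) and without DOCA-salt 2 (adjusted p = 0.0381). In the cycling class Cldn1 and Cldn3 passed the threshold (log2 change 2.00 ± 0.38 and 2.82 ± 0.58, edgeR adjusted p = 0.00183 and adjusted p = 0.00325), where 16.5% of all genes were called and 11.6% were higher. This class joined a cluster found in all mice with one that held 22, 26 and 18 DOCA-salt cells and 0, 0 and 1 sham cells, and in DOCA-salt mice 5 cells held 84.2% to 95.0% of its Cldn3 and 73.2% to 94.6% of its Cldn1 UMIs.

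The partners of the claudins in the junction, from a list of scaffold, tricellular and polarity genes, moved in both directions. Of 184 tested pairs of gene and class, 13 were higher and 10 were lower, against 4.6% and 3.6% of all pairs. In the connecting tubule occludin (Ocln, 0.92 ± 0.18), Marveld3 (1.38), Lsr (0.80) and Pard3 (0.55) rose, and Pard6b (-1.29) and Pals1 (-0.60) fell. Cgn, the scaffold cingulin, rose in principal cells (1.14), pendrin-positive cells (0.70), proximal tubule S1 (0.85) and S2 (0.87). Tjp1, the scaffold ZO-1, fell in the parietal class (-0.76) and in pendrin-positive cells (-0.45). In the thick ascending limb and the thin limb, where 1.18% and 0.679% of all genes were called, none of the 19 was. Among the claudins outside the 10 members, Cldn6 rose in the connecting tubule, from 2.83 to 40.2 CPM (log2 change 3.56 ± 0.52, edgeR adjusted p = 0.000154), and in the distal convoluted tubule (1.85) and pendrin-positive cells (1.41). Cldn15 fell in the parietal class (-1.26).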

How the data were processed

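Single-cell 3′ RNA libraries were made by the authors from 3 sham and 3 DOCA-salt kidneys. The authors aligned reads to GRCm39 with Cell Ranger, version 9.0.0 in the methods and processing notes and 8.0.1 in the file headers, and analysed them with Seurat 4.0.0 in R 4.0.3. The deposited matrices hold raw UMI counts per gene and barcode, not normalized, and include barcodes that the stated filters remove. Cell types were rebuilt here, and differences from the study's types may come from that.

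Barcodes with at least 170 genes and 500 UMIs, at most 50% mitochondrial and 5% haemoglobin UMIs were kept. In every library the cells with the highest Scrublet doublet scores were removed, 0.8% per 1000 cells (544 to 947 cells). Cells were clustered in scanpy 1.11.5 (Python 3.11.15) on 2000 variable genes without claudins, 30 components, 20 neighbours and Leiden resolution 1, with no integration of libraries. A cluster was named from its best-scoring marker list, with at least 3 of the markers detected and no other type ahead among its 10 leading genes. Counts were summed per mouse and class and tested in edgeR 4.0.16 (quasi-likelihood test, TMM, filterByExpr, R 4.3.3) with Benjamini-Hochberg adjustment over all genes of a class. Differences of change between classes were tested in 1 edgeR model with class by treatment terms and the mouse as a block. Differences in shares of cells were tested by exact two-sided permutation over mice. The scripts were first tested on simulated data. Intervals on ratios and shares cover counting error only.

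The alternatives were DESeq2 1.42.0, its size factors, library size alone, no filter on low counts, mitochondrial share at most 20%, at least 1000 UMIs, no doublet removal, resolution 2, clusters mostly of 1 mouse left out, a replicate block and leaving out each mouse. Named genes were the 10 members, called claudins outside them, fixed lists of 19 junction partners and 12 thick ascending limb genes, and the 3 genes closest to each member. The members and lists were chosen with earlier results of these data known. An alternative and a gene of these lists are not reported here. Positions are from GRCm39 with GENCODE.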

Additional observations from a re-analysis of the deposited data

Results flagged for a closer look

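The change of every member differed between the 10 nephron classes in the joint test (edgeR adjusted p = 1.49e-08 for Cldn1, 0.001 for Cldn2, 4.34e-08 for Cldn3, 1.05e-09 for Cldn4, 3.54e-06 for Cldn5, 0.000581 for Cldn7, 0.00408 for Cldn8, 4.41e-09 for Cldn10, 0.0242 for Cldn16 and 0.000349 for Cldn19), as it did for 51.7% of all genes tested.

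Between pairs of classes, the differences past the threshold were as follows, each the log2 change in the class named first minus that in the second. For Cldn4 the distal convoluted tubule exceeded the connecting tubule by 1.95, principal cells by 2.38, type A cells by 3.07 and pendrin-positive cells by 2.79. The connecting tubule exceeded type A cells by 1.12 and pendrin-positive cells by 0.84 for Cldn4, and principal cells exceeded type A cells by 0.68. For Cldn3 the distal convoluted tubule exceeded type A cells by 1.84 and pendrin-positive cells by 1.12, and the connecting tubule exceeded principal cells by 0.98, type A cells by 1.74 and pendrin-positive cells by 1.02. Cldn7 changed by 0.8 more in the connecting tubule than in type A cells.

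For Cldn19 the differences were 3.9 for the distal convoluted tubule over principal cells, 5.34 over type A cells and 2.7 for the connecting tubule over principal cells, and Cldn19 had too few UMIs to be tested in the connecting tubule or type A cells alone. In the thin limb the difference of Cldn2 was 1.14 against the thick ascending limb, 0.78 against proximal tubule S1 and 1.81 against principal cells. That of Cldn10, which few cells carried in the thin limb, was 1.82, 1.85 and 2.5 against the same classes. Against principal cells the thin limb differed by -0.78 for Cldn3, -0.5 for Cldn7 and -0.72 for Cldn8, and against the thick ascending limb by 3.1 for Cldn16, which had too few thin limb UMIs to be tested in that class alone. Its thin limb UMIs lay in 2, 2 and 1 cells of the DOCA-salt mice, with 13 in 1 cell of DOCA-salt 2 and 6 in 1 cell of DOCA-salt 3. The parietal class differed from proximal tubule S1 by 1.56 for Cldn10, -4 for Cldn5 and -0.55 for Cldn1.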

How the results depend on the processing

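Over all settings 1576 values of member and class were compared with the reported ones. Of these, 1484 stayed on their side of the threshold, 61 lost the call and 30 gained it. The 1 counted as reversed was Cldn2 in the smaller thin limb cluster (-0.75), where it was not called. A change of direction counted as reversed only where either value was called. The 1484 thus include uncalled values that changed direction, such as Cldn4 in the smaller thin limb cluster (0.15). Of 25 called results, 13 held in every planned setting. The 19 rises in nephron classes were 20 with DESeq2, 27 without a filter on low counts, 14 at resolution 2, 16 without doublet removal and 11 to 26 when a mouse was left out, the 11 being without DOCA-salt 3. The 2 falls were 4 without doublet removal and 1 to 3 when a mouse was left out (1 without DOCA-salt 2). The 2 endothelial calls, both of Cldn10, were 3 with DESeq2, 1 at a mitochondrial limit of 20%, 0 without doublet removal and 0 to 3 when a mouse was left out (0 without Sham 1, Sham 3 or DOCA-salt 3, and 1 without DOCA-salt 1 or DOCA-salt 2). The 10 members with unequal change were 8 to 10 throughout. Of 9 pairs, 3 had one sign of co-detection in all mice, against 1 at 2000 UMIs and 3 to 5 when a mouse was left out (5 without DOCA-salt 1). DESeq2 also called Cldn8 in the thin limb (adjusted p = 0.0143), Cldn5 in pooled endothelium (0.0107), Cldn1 in proximal tubule S1 (0.0395) and Cldn3 in whole kidneys (0.032), and edgeR without a filter on low counts called all 4. The cause of these shifts was not tested.

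The replicate numbers did not pair the mice: deviations of same-numbered mice correlated at most at 0.006. With a replicate block 15 rises, 2 falls and 0 endothelial calls were found. Depth limited low members: 24 of the 100 pairs of member and nephron class had too few UMIs to test.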

Other observations

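Cells of the thick ascending limb were parted after seeing the data by which of Cldn10 and Cldn16 had a UMI. Cells with Cldn16 alone were 5.21% to 7.95% of the class per mouse, cells with Cldn10 alone 33.8% to 45.8% and cells with both 0.79% to 2.34%, after thinning to 1000 UMIs. Genes of the thick ascending limb list that were higher in Cldn16 cells than in Cldn10 cells in 6 of 6 mice included Tmem52b (422 against 30.4 CPM), the transcription factor Foxq1 (161 against 16.5), the potassium channel gene Kcnj10 (122 against 35.5), Enox1 (281 against 101), the parathyroid hormone receptor Pth1r (314 against 119), the calcium-sensing receptor Casr (193 against 99.9) and Kcnj16 (441 against 270). The cotransporter Slc12a1 was at 7162 CPM in Cldn16 cells and 8290 CPM in Cldn10 cells, lower in 6 of 6 mice. Cldn19 did not follow the split, at 269 and 257 CPM and higher in 3 of 6 mice.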
